A study of Helianthus annuus with 12 samples.

Results

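The cultivars 86-1 and L-1-OL-1 of sunflower, Helianthus annuus, were compared in their seeds 17 days after flowering (DAF). The 3 libraries of 86-1 and the 3 of L-1-OL-1 were taken by their labels and make up 6 of the 12 libraries of the series. A gene entered where it had at least 1 FPKM in 3 or more of the 6 libraries, which left 26660 of 48882 genes. Both groups were seed of a named cultivar, and the labels give no other allele or agent for either. The study is about sunflower with high and low oleic acid content, and its labels place 17 DAF in the phase of fast oleic acid accumulation; they do not say which cultivar is which. The labels do not say whether libraries of one group stem from different plants or from pooled seed, so each p-value rests on how far these libraries spread, and that spread may be technical.

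Sunflower seeds fill their embryo with storage oil (triacylglycerol) and storage proteins before they dry. Fatty acids are built in the plastid, where stearoyl-ACP desaturase makes oleic acid, and in the endoplasmic reticulum an oleate desaturase of the FAD2 type turns oleic into linoleic acid. Late in filling, LEA (late embryogenesis abundant) proteins and small heat shock proteins, which protect the drying embryo, accumulate, and cell division ends. The fruit also has a hull, whose lignified walls are no part of the embryo.

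Levels are FPKM as deposited (fragments scaled by gene length and library size), given for replicates 1, 2 and 3 in that order. A difference is 86-1 minus L-1-OL-1 on the log2(FPKM + 1) scale, with its standard error, so that differences of low genes are understated. Differences were tested with limma in the 6 libraries, p-values were adjusted by Benjamini-Hochberg over all 26660 genes, and a gene is called when its adjusted p is below 0.05. FPKM totals lay between 636057 and 672612 per library, and the number of reads is unknown. In such bulk samples, fewer cells of a type and less RNA per cell cannot be told apart.

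The L-1-OL-1 libraries differed among themselves, and each is shown on its own. Replicate 1 lay within the range of the 86-1 libraries for 38.5% of genes, replicate 2 for 30.9% and replicate 3 for 22.9%. For 2392 genes L-1-OL-1 replicate 1 was below all 86-1 libraries while replicates 2 and 3 were above all of them. Over the tested genes, which are not independent replicates, Pearson's r between L-1-OL-1 replicates 1 and 3 was 0.775, and that of replicate 3 with the L-1-OL-1 libraries of 27 DAF was 0.747 to 0.791. L-1-OL-1 replicate 1 had r of 0.838, 0.805 and 0.816 with 86-1 replicates 1, 2 and 3, above its r with replicate 3 of its own cultivar, and r of 0.855 with L-1-OL-1 replicate 2. Replicate 1 of 86-1 also stood apart, with r of 0.828 to 0.873 with the 86-1 libraries of 27 DAF, where 86-1 replicates 2 and 3 had 0.751 to 0.792.

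**Figure D1:**
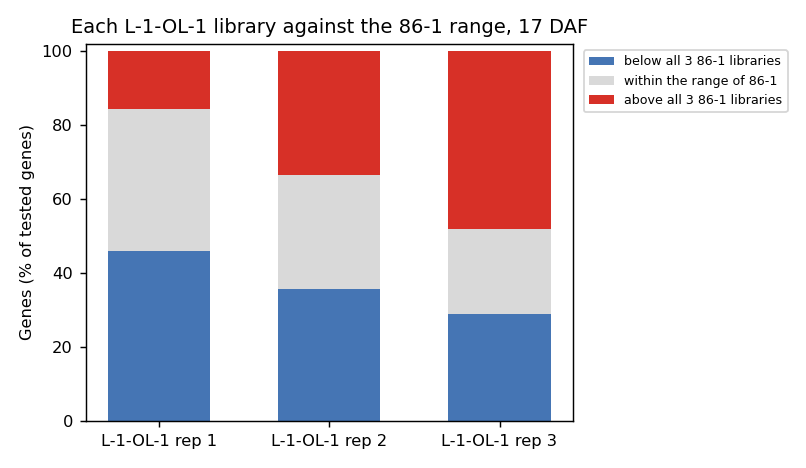
Share of the 26660 tested genes (y axis, percent) for which each L-1-OL-1 library (x axis) lay below all 3 86-1 libraries, within their range or above all of them. The share above 86-1 is 15.7% in replicate 1, 33.4% in replicate 2 and 48.2% in replicate 3.

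Seed reserves showed the same spread. Storage protein genes took 35.9%, 11% and 10.5% of the FPKM total in 86-1, against 35.1%, 21.1% and 0.937% in L-1-OL-1, so replicate 1 was the highest of each group and L-1-OL-1 replicate 3 the lowest of all. LEA genes took 0.581%, 0.365% and 0.365% in 86-1, against 0.554%, 1.56% and 4.38% in L-1-OL-1, where replicate 1 was at the level of 86-1 and replicates 2 and 3 above it. Genes of fat breakdown and the glyoxylate cycle, which turns stored fat into sugar, took 0.102%, 0.110% and 0.132% in 86-1, against 0.0864%, 0.316% and 0.850% in L-1-OL-1. Storage and oil body genes, which mark a filling embryo, were present in every library. What part this spread has in the cultivar differences was not tested, and counts are therefore also given without L-1-OL-1 replicate 1. That library was the L-1-OL-1 library nearest to 86-1, so leaving it out favours larger differences and more calls. Counts and p-values of that fit describe the spread and give no separate support for a cultivar difference.

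**Figure D2:**
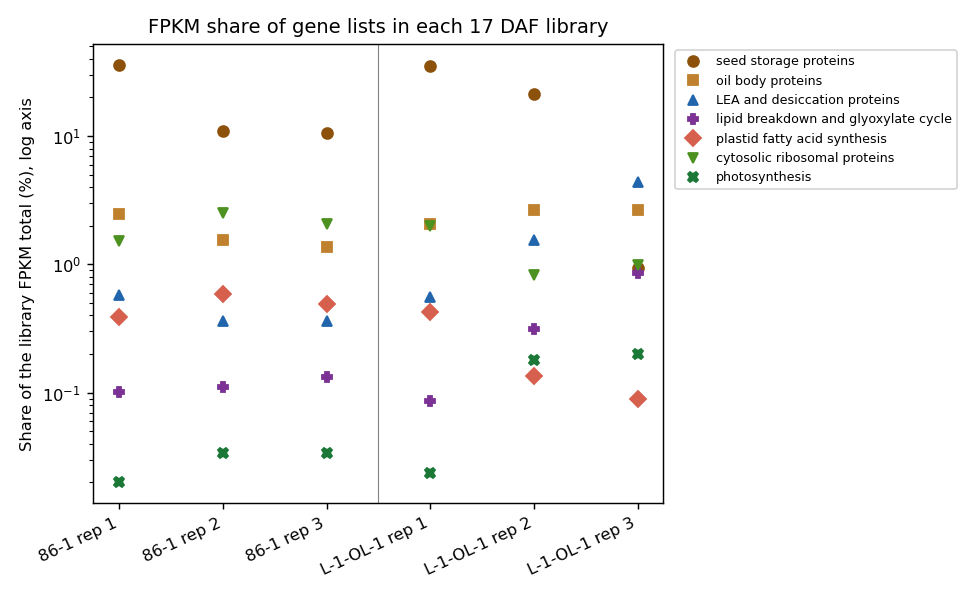
Share of each library's FPKM total (y axis, percent, log axis) held by 7 gene lists in the 3 86-1 and the 3 L-1-OL-1 libraries at 17 DAF (x axis). L-1-OL-1 replicate 1 lies within the 86-1 range or just below it for the lists drawn, and L-1-OL-1 replicate 3 has the lowest storage share (0.937%) and the highest LEA share (4.38%).

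In all, 4768 of the 26660 genes were called, 2711 higher in 86-1 (10.2% of the tested genes) and 2057 lower (7.72%), and 4578 of them differed at least 2-fold on that scale. With L-1-OL-1 replicate 1 left out, 4738 were higher (17.8%) and 4657 lower (17.5%). Without 86-1 replicate 1 the counts were 2885 and 1574, and without 86-1 replicate 2 they were 1649 and 1372. Without 86-1 replicate 3 they were 1789 and 1632. Leaving out L-1-OL-1 replicate 2 gave 1615 and 1545, and leaving out L-1-OL-1 replicate 3 gave 1975 and 1671. Calls that held in each of the 6 fits without 1 library numbered 1501 higher (5.63%) and 1305 lower (4.89%). All 86-1 libraries lay above all L-1-OL-1 libraries for 4843 genes (18.2%) and below them for 3209 (12%), and with L-1-OL-1 replicate 1 left out for 7056 (26.5%) and 8305 (31.2%). The median difference over all genes was 0.04, and it was 0.30 against L-1-OL-1 replicate 1, 0.07 against replicate 2 and -0.24 against replicate 3, beside which the list medians stand. List counts below likewise stand beside the shares of all tested genes, 10.2% higher and 7.72% lower. List counts with L-1-OL-1 replicate 1 left out stand beside 17.8% and 17.5%.

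Of the omega-6 oleate desaturases, which decide how much oleic acid is turned into linoleic acid, 5 of 5 passed the filter, of which 2 (40%) were higher and 0 lower in 86-1. The most abundant one on average, described as delta-12 oleate desaturase, had the largest difference: gene64287 had 905, 698 and 481 FPKM in 86-1, against 49.3, 17.97 and 2.55 in L-1-OL-1 (difference 5.49 ± 0.85, adjusted p = 0.00226). The lowest 86-1 library was well above the highest L-1-OL-1 library, and within L-1-OL-1 the libraries ranked as they did for the storage share. The less abundant desaturase gene55389 had 7.90, 30.5 and 41.7 FPKM in 86-1, against 3.799, 4.64 and 5.88 in L-1-OL-1 (difference 2.0 ± 0.56, adjusted p = 0.0414), and the call was lost without 86-1 replicate 2 or 3 or L-1-OL-1 replicate 2 or 3 (adjusted p = 0.18, 0.161, 0.109 and 0.0667), and also with a pseudocount of 0.1, with no filter and over genes with a mean of at least 5 FPKM alone (adjusted p = 0.0507, 0.0894 and 0.0746). The third of them, gene18808, had 4.35, 198 and 559 FPKM in 86-1, against 31.0, 0.413 and 0.0736 in L-1-OL-1 (difference 4.53 ± 1.80, adjusted p = 0.131). There 86-1 replicate 1 lay below L-1-OL-1 replicate 1, and the gene did not pass. The desaturase gene1458 had 18.8, 41.5 and 61.9 FPKM in 86-1, against 5.50, 43.5 and 87.0 in L-1-OL-1 (adjusted p = 0.854), and gene44739 had a difference of 0.16 ± 0.36 (adjusted p = 0.832). With L-1-OL-1 replicate 1 left out the calls were 3 higher and 0 lower.

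Neither of the stearoyl-ACP desaturases, which make oleic acid, was called with all 6 libraries. The main one, gene3372, had 1513, 1137 and 923 FPKM in 86-1, against 949.9, 168 and 32.4 in L-1-OL-1 (difference 2.74 ± 1.06, adjusted p = 0.123). Here L-1-OL-1 replicate 1 lay within the 86-1 range and replicates 2 and 3 below it, and with replicate 1 left out the difference was 3.96 (adjusted p = 0.000743). The other, gene48724, had 110.2, 128 and 125 FPKM in 86-1, against 163, 76.8 and 45.8 in L-1-OL-1 (difference 0.53 ± 0.48, adjusted p = 0.545).

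In plastid fatty acid synthesis, 25 of 33 passed the filter, of which 0 were higher and 2 (8.0%) lower in 86-1. The counts were 13 higher and 4 lower with L-1-OL-1 replicate 1 left out, and the median difference was -0.11, 1.04 and 1.17 against L-1-OL-1 replicates 1, 2 and 3. The acyl carrier proteins, which hold the growing chain, were the most abundant members. Acyl carrier protein 2, gene63283, had 966, 1463 and 1134 FPKM in 86-1, against 741, 148 and 82.6 in L-1-OL-1 (difference 2.48 ± 0.79, adjusted p = 0.065, and adjusted p = 0.00026 with L-1-OL-1 replicate 1 left out). Acyl carrier protein 1, gene70736, had 419, 869 and 770.1 FPKM in 86-1, against 694, 150.5 and 78.6 in L-1-OL-1 (adjusted p = 0.197, and adjusted p = 0.00193 with that library left out). Both called members were lower in 86-1. One is a chain-extending enzyme described as 3-oxoacyl-ACP synthase: Helianthus_annuus_newGene_24716 had 0.0505, 0.095 and 1.92 FPKM in 86-1, against 7.61, 9.33 and 11.6 in L-1-OL-1 (difference -2.79 ± 0.43, adjusted p = 0.00225). Its 3 L-1-OL-1 libraries were close to each other.

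Acyl-ACP thioesterases release fatty acids in the plastid, and long-chain acyl-CoA synthetases activate them for use outside it. Of both together, 11 of 13 passed the filter, of which 3 (27.3%) were higher and 0 lower in 86-1, and with L-1-OL-1 replicate 1 left out the counts were 5 higher and 1 lower. The medians of 0.66, 1.11 and 0.84 were positive against each L-1-OL-1 replicate. The synthetase gene28825 had 6.17, 6.68 and 6.76 FPKM in 86-1, against 0, 0.038 and 0 in L-1-OL-1 (difference 2.90 ± 0.22, adjusted p = 0.000159). The synthetase gene43869 had 27.2, 25.2 and 27.9 FPKM in 86-1, against 12.2, 10.1 and 7.53 in L-1-OL-1 (difference 1.37 ± 0.30, adjusted p = 0.0147), and its call was lost without 86-1 replicate 2 or 3 or L-1-OL-1 replicate 2 or 3 (adjusted p = 0.0714, 0.0733, 0.0732 and 0.0514). Both had no overlap between cultivars. They are described as long-chain acyl-CoA synthetases 6 and 2, and their place in the cell was not followed. The most abundant member did not pass: gene46285 had 77.2, 106 and 95.8 FPKM in 86-1, against 99.5, 26.7 and 17.2 in L-1-OL-1 (adjusted p = 0.182).

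Among enzymes of triacylglycerol assembly, 20 of 30 passed the filter, of which 1 (5.0%) was higher and 2 (10%) lower in 86-1, and with L-1-OL-1 replicate 1 left out the counts were 1 higher and 7 lower. Glycerol-3-phosphate acyltransferases add a fatty acid to glycerol-3-phosphate, and members described as numbers 1 and 5 differed in opposite directions. The list rests on descriptions, so membership does not show a role in oil assembly. Number 1, gene64602, had 14.3, 26.8 and 20.8 FPKM in 86-1, against 5.19, 1.89 and 1.28 in L-1-OL-1 (difference 2.61 ± 0.45, adjusted p = 0.00369). Number 5, whose Arabidopsis relative makes precursors of suberin rather than oil, gene31133, had 2.46, 0 and 0.33 FPKM in 86-1, against 6.84, 14.9 and 15.8 in L-1-OL-1 (difference -2.94 ± 0.52, adjusted p = 0.00449). The most abundant member is a lysophosphatidyl acyltransferase, which adds the second fatty acid: gene55427 had 44.9, 97.3 and 112 FPKM in 86-1, against 78.1, 52.6 and 34.7 in L-1-OL-1 (adjusted p = 0.48).

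Oil body proteins coat the storage oil droplets, and the main oleosins did not pass the test. Oleosin gene63945 had 5647, 4735 and 3806 FPKM in 86-1, against 4853, 3390.3 and 3289.9 in L-1-OL-1 (difference 0.30 ± 0.76, adjusted p = 0.851). Oleosin gene29184 had 4562, 2215 and 2157 FPKM in 86-1, against 3943, 4529 and 1671 in L-1-OL-1 (difference -0.15 ± 0.78, adjusted p = 0.934). Their libraries overlapped between cultivars. Of the list, 24 of 26 passed the filter, of which 2 (8.33%) were higher and 5 (20.8%) lower in 86-1, and with L-1-OL-1 replicate 1 left out the counts were 2 higher and 12 lower. A less abundant oleosin was lower in every 86-1 library: gene71099 had 13.5, 2.27 and 2.48 FPKM in 86-1, against 32.8, 92.6 and 174 in L-1-OL-1 (difference -3.91 ± 0.73, adjusted p = 0.00626). Oleosin gene11149 had 2.34, 0.351 and 0.358 FPKM in 86-1, against 3.43, 237 and 1016 in L-1-OL-1 (adjusted p = 0.0452), with a call lost without 86-1 replicate 1, 2 or 3 or L-1-OL-1 replicate 2 or 3 (adjusted p = 0.123, 0.155, 0.143, 0.125 and 0.0993). The oil body-associated protein Helianthus_annuus_newGene_23526 had 12.9, 17.1 and 14.8 FPKM in 86-1, against 0, 0 and 0 in L-1-OL-1 (adjusted p = 0.000159).

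Seed storage proteins were among the most abundant transcripts. Of these genes, 27 of 33 passed the filter, of which 0 were higher and 1 (3.70%) lower in 86-1, and with L-1-OL-1 replicate 1 left out the counts were 3 higher and 2 lower. The 11S globulin gene16080 had 30737, 9538 and 9009.6 FPKM in 86-1, against 23857, 20784 and 739 in L-1-OL-1 (difference 0.95 ± 1.53, adjusted p = 0.757). The 2S albumin gene47899 had 17128, 6692 and 7701 FPKM in 86-1, against 17899, 8421 and 337 in L-1-OL-1 (adjusted p = 0.622). In both, L-1-OL-1 replicate 3 was the lowest library, and L-1-OL-1 replicates 1 and 2 were above 86-1 replicates 2 and 3. The list's medians of -1.04, -0.36 and 4.49 against L-1-OL-1 replicates 1, 2 and 3 changed sign between libraries. A wider spread was that of another 2S albumin: gene47181 had 19190.0, 3367 and 3357 FPKM in 86-1, against 14901, 8236 and 19.5 in L-1-OL-1 (adjusted p = 0.612). The called member is a minor albumin: gene70268 had 0.567, 0 and 0 FPKM in 86-1, against 1.38, 79.4 and 90.2 in L-1-OL-1 (difference -4.48 ± 1.23, adjusted p = 0.0377), and the call was lost without 86-1 replicate 1, 2 or 3 or L-1-OL-1 replicate 2 or 3 (adjusted p = 0.118, 0.132, 0.122, 0.107 and 0.1).

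Lipid transfer proteins share the helical fold of the 2S albumins and carry lipids, among others to the cuticle. Of this list, 39 of 61 passed the filter, of which 7 (17.9%) were higher and 11 (28.2%) lower in 86-1, and with L-1-OL-1 replicate 1 left out the counts were 7 higher and 18 lower. The lipid transfer protein gene65625 had 36.0, 32.1 and 42.8 FPKM in 86-1, against 1.08, 0.0715 and 0 in L-1-OL-1 (difference 4.85 ± 0.37, adjusted p = 0.000161). The lipid-transfer or 2S albumin type gene2767 had 6.09, 3.07 and 6.41 FPKM in 86-1, against 179.9, 729 and 355 in L-1-OL-1 (difference -5.92 ± 0.53, adjusted p = 0.000254). In both, all 3 L-1-OL-1 libraries were on one side of 86-1. The non-specific lipid transfer protein AP10 varied widely in both cultivars and did not pass: gene62341 had 1104, 5.68 and 38.6 FPKM in 86-1, against 770.0, 5051 and 875 in L-1-OL-1 (difference -4.50 ± 1.66, adjusted p = 0.106).

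**Figure D3:**
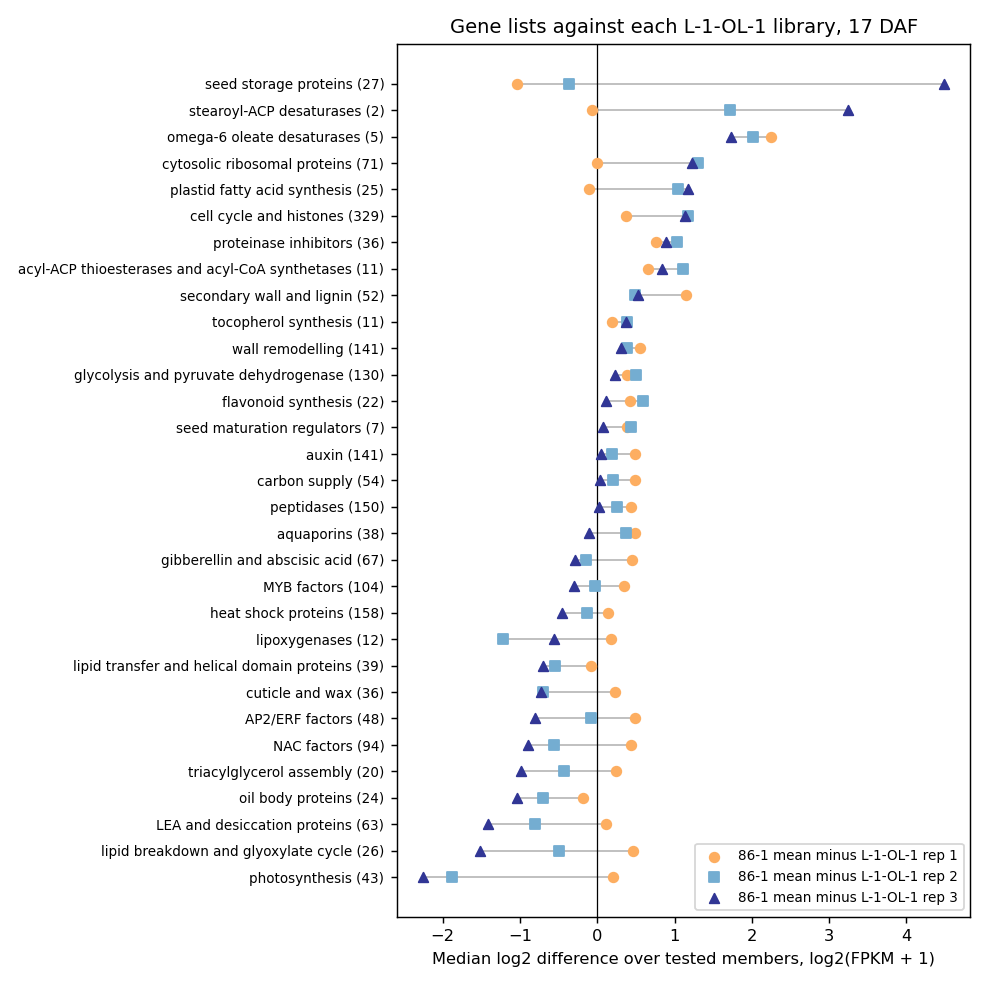
Median difference (x axis, log2(FPKM + 1) scale) over the tested members of 31 gene lists (y axis, number of tested members in brackets), as the mean of 86-1 minus each L-1-OL-1 library. The medians of 14 lists are positive against all 3 libraries, among them omega-6 desaturases, proteinase inhibitors, secondary wall, cell cycle and glycolysis genes, those of 2 lists are negative against all 3, and those of 15 lists, photosynthesis, LEA and storage genes among them, have both signs. Over all tested genes the medians also have both signs, with 0.30, 0.07 and -0.24 against replicates 1, 2 and 3. Ribosomal proteins count as positive with a median of 0.000555 against replicate 1.

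Of the LEA and desiccation genes, 63 of 94 passed the filter, of which 5 (7.94%) were higher and 12 (19.0%) lower in 86-1, and with L-1-OL-1 replicate 1 left out the counts were 10 higher and 29 lower. The median was 0.12, -0.81 and -1.41 against L-1-OL-1 replicates 1, 2 and 3. The small LEA protein gene known as DS10 was lower in every 86-1 library: gene28892 had 30.6, 4.09 and 6.28 FPKM in 86-1, against 122, 626 and 1203 in L-1-OL-1 (difference -5.42 ± 0.93, adjusted p = 0.00374). A dehydrin, a water-binding protein, was lower as well: gene55914 had 0.66, 0.128 and 0.312 FPKM in 86-1, against 6.77, 304 and 755 in L-1-OL-1 (difference -6.49 ± 1.43, adjusted p = 0.0138), and the call was lost without 86-1 replicate 1, 2 or 3 (adjusted p = 0.0732, 0.0595 and 0.0517). Within L-1-OL-1 both were highest in replicate 3, the library with the least storage transcripts. A seed maturation protein gene was higher in 86-1: gene6880 had 12.3, 3.02 and 5.51 FPKM in 86-1, against 0, 0.0978 and 0 in L-1-OL-1 (difference 2.77 ± 0.41, adjusted p = 0.00167).

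Heat shock proteins are chaperones, and small ones build up in maturing seeds. Of the list, 158 of 251 passed the filter, of which 5 (3.16%) were higher and 19 (12%) lower in 86-1, and with L-1-OL-1 replicate 1 left out the counts were 8 higher and 43 lower. A gene described as HSP20-like chaperone, gene58081, had 0.101, 0 and 3.58 FPKM in 86-1, against 20.3, 21.4 and 29.3 in L-1-OL-1 (difference -3.83 ± 0.57, adjusted p = 0.00187). Another gene with that description was higher in 86-1: gene45549 had 28.9, 42.0 and 33.4 FPKM in 86-1, against 9.93, 7.31 and 11.5 in L-1-OL-1 (difference 1.76 ± 0.32, adjusted p = 0.00502). The abundant 17.6 kDa class I gene28728 had 10.2, 1.013 and 2.17 FPKM in 86-1, against 9.95, 249.6 and 2782 in L-1-OL-1 (difference -5.57 ± 1.70, adjusted p = 0.0565), and did not pass, its L-1-OL-1 replicate 1 lying within the 86-1 range. The constitutive HSP70 gene69817 had 642, 836 and 911 FPKM in 86-1, against 503, 819 and 936 in L-1-OL-1 (adjusted p = 0.924).

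Of the seed maturation regulators, 7 of 27 passed the filter, of which 0 were higher and 0 lower in 86-1, and with L-1-OL-1 replicate 1 left out the counts were 2 higher and 0 lower. The largest difference was that of a leafy cotyledon 1-like gene, whose Arabidopsis relatives switch on embryo and oil genes: gene73129 had 125, 197 and 173 FPKM in 86-1, against 86.9, 7.59 and 0.899 in L-1-OL-1 (difference 3.85 ± 1.16, adjusted p = 0.0529, and adjusted p = 7.42e-05 with L-1-OL-1 replicate 1 left out). All 86-1 libraries were above all L-1-OL-1 libraries, and replicate 1 was the highest of L-1-OL-1. The viviparous-1 gene, a B3 factor of the abscisic acid response, showed overlapping levels: gene66200 had 24.3, 26.8 and 19.7 FPKM in 86-1, against 29.4, 17.0 and 21.0 in L-1-OL-1 (adjusted p = 0.901).

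Fat breakdown and the glyoxylate cycle serve the seedling after germination. Of their genes, 26 of 47 passed the filter, of which 2 (7.69%) were higher and 1 (3.85%) lower in 86-1, and with L-1-OL-1 replicate 1 left out the counts were 2 higher and 10 lower. The malate synthase gene22141 had 96.6, 18.7 and 12.03 FPKM in 86-1, against 25, 586 and 2392 in L-1-OL-1 (difference -3.50 ± 1.5, adjusted p = 0.161). The isocitrate lyase gene15722 had 3.15, 7.65 and 2.70 FPKM in 86-1, against 2.54, 251 and 837 in L-1-OL-1 (difference -4.15 ± 1.70, adjusted p = 0.143). For this pair, the enzymes specific to the cycle, L-1-OL-1 replicate 1 was close to the 86-1 values and L-1-OL-1 replicates 2 and 3 were far above them.

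Carbon reaches the seed as sucrose, which sucrose synthase and invertases split. Of the carbon supply genes, 54 of 101 passed the filter, of which 11 (20.4%) were higher and 2 (3.70%) lower in 86-1, and with L-1-OL-1 replicate 1 left out the counts were 17 higher and 9 lower. The main sucrose synthase had no overlap: gene45459 had 1061, 1937 and 1483 FPKM in 86-1, against 488, 48.8 and 27.6 in L-1-OL-1 (difference 4.03 ± 0.97, adjusted p = 0.0212), and the call was lost without 86-1 replicate 1, 2 or 3 or L-1-OL-1 replicate 2 or 3 (adjusted p = 0.0741, 0.0926, 0.0751, 0.0751 and 0.057). The sugar exporter of the SWEET family gene65929 had 15.1, 51.8 and 155 FPKM in 86-1, against 1.145, 0.3 and 0.429 in L-1-OL-1 (difference 5.01 ± 0.73, adjusted p = 0.00159). A far more abundant SWEET gene did not pass: gene33431 had 574, 572 and 559 FPKM in 86-1, against 971, 644 and 52.5 in L-1-OL-1 (adjusted p = 0.664). The neutral invertase Helianthus_annuus_newGene_6309 had 6.16, 8.99 and 8.15 FPKM in 86-1, against 0, 0 and 0 in L-1-OL-1 (adjusted p = 0.000172).

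Glycolysis and pyruvate dehydrogenase feed carbon to fatty acid synthesis. Of their genes, 130 of 208 passed the filter, of which 14 (10.8%) were higher and 5 (3.85%) lower in 86-1, and with L-1-OL-1 replicate 1 left out the counts were 40 higher and 19 lower. The higher share was near the 10.2% of all tested genes, and the lower share was below their 7.72%. Enolase gene25883 had 1007, 1726 and 1420.3 FPKM in 86-1, against 572, 209.6 and 231 in L-1-OL-1 (difference 2.15 ± 0.57, adjusted p = 0.0331), and the call was lost without 86-1 replicate 1, 2 or 3 or L-1-OL-1 replicate 2 or 3 (adjusted p = 0.0544, 0.164, 0.133, 0.154 and 0.0912). Phosphoglycerate kinase gene23034 had 599, 730.0 and 629 FPKM in 86-1, against 433, 116 and 109.6 in L-1-OL-1 (adjusted p = 0.0656) and did not pass. In both, all 86-1 libraries were above all L-1-OL-1 libraries, and L-1-OL-1 replicate 1 was the nearest to them. A phosphoenolpyruvate carboxylase model was listed at 0 in L-1-OL-1 replicates 1 and 2: Helianthus_annuus_newGene_13283 had 30.7, 31.7 and 28.2 FPKM in 86-1, against 0, 0 and 0.0266 in L-1-OL-1 (difference 4.95 ± 0.28, adjusted p = 0.000159). The phosphoglycerate mutase gene79507 had 0.393, 0.328 and 1.13 FPKM in 86-1, against 4.01, 4.29 and 7.21 in L-1-OL-1 (difference -1.93 ± 0.31, adjusted p = 0.00291).

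Photosynthesis genes split the L-1-OL-1 libraries. Of this list, 43 of 118 passed the filter, of which 0 were higher and 7 (16.3%) lower in 86-1, and with L-1-OL-1 replicate 1 left out the counts were 1 higher and 31 lower. None of the 7 calls held in every fit without 1 library. Medians were 0.20, -1.88 and -2.25 against L-1-OL-1 replicates 1, 2 and 3. The photosystem II subunit gene32857 had 1.54, 3.46 and 1.35 FPKM in 86-1, against 3.64, 97.9 and 97.8 in L-1-OL-1 (difference -3.58 ± 1.07, adjusted p = 0.0527, and adjusted p = 1.75e-05 with that library left out). The oxygen-evolving enhancer gene37558 had 4.79, 10.9 and 4.82 FPKM in 86-1, against 3.43, 77.6 and 121 in L-1-OL-1 (adjusted p = 0.221, and adjusted p = 9.46e-05 with it left out). L-1-OL-1 replicate 1 was near 86-1 in both, and L-1-OL-1 replicates 2 and 3 were far above it. The photosystem II subunit PsbX, gene8446, had 0.67, 1.16 and 1.58 FPKM in 86-1, against 2.66, 35.6 and 40.7 in L-1-OL-1 (difference -3.08 ± 0.84, adjusted p = 0.0376), and the call was lost without 86-1 replicate 1, 2 or 3 or L-1-OL-1 replicate 2 or 3 (adjusted p = 0.142, 0.124, 0.096, 0.116 and 0.1).

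Cytosolic ribosomal proteins build the ribosome. Of these, 71 of 77 passed the filter, of which 4 (5.63%) were higher and 0 lower in 86-1, and with L-1-OL-1 replicate 1 left out the counts were 43 higher and 1 lower, with medians of 0.00, 1.30 and 1.23 against replicates 1, 2 and 3. Protein L3 of the large subunit, gene46722, had 126, 302 and 161 FPKM in 86-1, against 22.7, 15.1 and 17.8 in L-1-OL-1 (difference 3.25 ± 0.41, adjusted p = 0.000838). Protein L18a, gene74529, had 20.8, 55.5 and 32.9 FPKM in 86-1, against 2.83, 1.53 and 2.38 in L-1-OL-1 (difference 3.44 ± 0.41, adjusted p = 0.000677). In both, every L-1-OL-1 library was below every 86-1 library. For the abundant ubiquitin fusion protein S27a this held for 2 of them: gene29557 had 413, 677 and 534 FPKM in 86-1, against 662, 167 and 157 in L-1-OL-1 (adjusted p = 0.335, and adjusted p = 0.00815 with replicate 1 left out).

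Cell cycle and histone genes mark dividing tissue. Of these, 329 of 435 passed the filter, of which 48 (14.6%) were higher and 12 (3.65%) lower in 86-1, and with L-1-OL-1 replicate 1 left out the counts were 173 higher and 17 lower. Histone H4 gene60839 had 26.2, 79.3 and 41.1 FPKM in 86-1, against 6.98, 0.0585 and 0.683 in L-1-OL-1 (difference 4.22 ± 0.74, adjusted p = 0.00426). Histone H2A gene25026 had 285, 741 and 616 FPKM in 86-1, against 417, 136 and 81.2 in L-1-OL-1 (adjusted p = 0.157) and did not pass. Histone genes have near-identical copies, so how reads were divided among them is uncertain. A pair of kinesin genes, which code for motor proteins, differed in opposite directions. The phragmoplast-associated one, known from cell plate formation, gene40816, had 61.1, 60.9 and 52.1 FPKM in 86-1, against 0.0375, 0 and 0 in L-1-OL-1 (difference 5.86 ± 0.29, adjusted p = 0.000117). The other, gene72682, had 3.97, 7.15 and 18.2 FPKM in 86-1, against 108, 153 and 223 in L-1-OL-1 (difference -4.08 ± 0.53, adjusted p = 0.000949). In both, every L-1-OL-1 library was far from every 86-1 library. At 27 DAF gene40816 had 41.0, 52.7 and 72.3 FPKM in 86-1, against 0, 0 and 0 in L-1-OL-1. There gene72682 had 2.55, 5.43 and 12.9 FPKM, against 270, 286 and 195. Histone H2A gene25026 had 69.1, 80.8 and 71.7 FPKM, against 49.7, 55.2 and 45.8, at that stage. Whether these kinesin genes follow cell division was not tested.

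Secondary wall and lignin genes stand here for hull tissue. Of these, 52 of 98 passed the filter, of which 20 (38.5%) were higher and 7 (13.5%) lower in 86-1, and with L-1-OL-1 replicate 1 left out the counts were 22 higher and 16 lower. Of the calls, 12 higher and 2 lower ones held in every fit without 1 library. Laccases, which polymerise lignin, were on both sides. Laccase gene31307 had 33.6, 53.8 and 68.5 FPKM in 86-1, against 0.707, 0 and 0 in L-1-OL-1 (difference 5.41 ± 0.39, adjusted p = 0.000159). Laccase gene18713 had 23.1, 29.8 and 31.5 FPKM in 86-1, against 0.629, 0.396 and 0.17 in L-1-OL-1 (difference 4.38 ± 0.31, adjusted p = 0.000159). Laccase gene31341 had 1.07, 0.756 and 1.67 FPKM in 86-1, against 5.89, 10.5 and 18.3 in L-1-OL-1 (difference -2.43 ± 0.42, adjusted p = 0.00399). The list took 0.162%, 0.244% and 0.300% of the FPKM total in 86-1, against 0.0949%, 0.195% and 0.205% in L-1-OL-1, with overlapping values, and what part the amount of hull has in these differences was not tested. The abundant caffeoyl-CoA methyltransferase, an enzyme of lignin precursors, did not pass: gene54285 had 186, 272 and 264 FPKM in 86-1, against 46.4, 108 and 136 in L-1-OL-1 (adjusted p = 0.0795).

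Wall remodelling genes act on pectin and xyloglucan. Of these, 141 of 306 passed the filter, of which 37 (26.2%) were higher and 17 (12.1%) lower in 86-1, and with L-1-OL-1 replicate 1 left out the counts were 48 higher and 38 lower. The pectinesterase inhibitor gene56138 had 5.28, 33.2 and 26.3 FPKM in 86-1, against 0.168, 0 and 0 in L-1-OL-1 (difference 4.10 ± 0.59, adjusted p = 0.00158). The xyloglucan endotransglucosylase gene47228 had 0, 0 and 0.168 FPKM in 86-1, against 16.1, 28.8 and 10.3 in L-1-OL-1 (difference -4.09 ± 0.39, adjusted p = 0.000293). Its relative gene47226 had 0.00745, 0.00739 and 0 FPKM in 86-1, against 10.8, 21.0 and 8.39 in L-1-OL-1 (difference -3.74 ± 0.36, adjusted p = 0.000293). In each of the 3, one cultivar was at or near 0 in all libraries. Of a list set up for cuticle and wax, 36 of 69 passed the filter, of which 2 (5.56%) were higher and 7 (19.4%) lower in 86-1, and with L-1-OL-1 replicate 1 left out the counts were 6 higher and 15 lower. The list also takes in CASP-like proteins, its most abundant tested members among them, and the acyltransferase gene31133. Its counts are therefore not those of cuticle and wax genes alone and mark no single tissue. The CASP-like membrane protein gene58405 had 0.906, 0.104 and 0.136 FPKM in 86-1, against 3.81, 7.28 and 8.91 in L-1-OL-1 (difference -2.46 ± 0.36, adjusted p = 0.00171). No description held the words set for endosperm and seed coat, so these tissues were not followed.

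Flavonoid enzymes make pigments and tannins. Of these, 22 of 47 passed the filter, of which 2 (9.09%) were higher and 3 (13.6%) lower in 86-1, and with L-1-OL-1 replicate 1 left out the counts were 5 higher and 7 lower. The flavonoid 3'-hydroxylase model Helianthus_annuus_newGene_23641 had 1.10, 1.53 and 1.25 FPKM in 86-1, against 32.2, 59.9 and 65.7 in L-1-OL-1 (difference -4.49 ± 0.36, adjusted p = 0.000177). The dihydroflavonol reductase gene57861 had 329.8, 285 and 235 FPKM in 86-1, against 174, 180.4 and 35.1 in L-1-OL-1 (adjusted p = 0.181). Neither gene had overlapping groups: every 86-1 library was below every L-1-OL-1 library for the first and above every one for the second, where L-1-OL-1 replicate 3 was the lowest by far and the gene did not pass.

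Peptidases include the enzymes that process storage proteins. Of these, 150 of 286 passed the filter, of which 27 (18%) were higher and 7 (4.67%) lower in 86-1, and with L-1-OL-1 replicate 1 left out the counts were 45 higher and 28 lower. A legumain, of the type known for that processing, gene12508, had 289, 986 and 1001 FPKM in 86-1, against 19.8, 1.62 and 4.42 in L-1-OL-1 (difference 6.63 ± 0.79, adjusted p = 0.000683). The subtilisin-type gene18236 had 52.7, 119 and 117 FPKM in 86-1, against 4.72, 0.401 and 0.154 in L-1-OL-1 (difference 5.44 ± 0.63, adjusted p = 0.000625). In both, L-1-OL-1 replicate 1 was the highest of its group and still far below 86-1. The aspartyl protease gene40092 had 6.02, 7.41 and 14.8 FPKM in 86-1, against 61.5, 268 and 390.1 in L-1-OL-1 (difference -4.26 ± 0.67, adjusted p = 0.00245). The most abundant member, an aspartic proteinase, did not pass: gene10514 had 481, 412 and 382 FPKM in 86-1, against 702, 527 and 515 in L-1-OL-1 (adjusted p = 0.585). A gene described as vacuolar-processing enzyme, gene77756, overlapped between cultivars and did not pass. It had 467, 370 and 285 FPKM in 86-1, against 290, 406 and 1158 in L-1-OL-1 (adjusted p = 0.671). Whether gene12508 acts on storage proteins was not tested.

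Of the proteinase inhibitors, 36 of 73 passed the filter, of which 16 (44.4%) were higher and 2 (5.56%) lower in 86-1, and with L-1-OL-1 replicate 1 left out the counts were 17 higher and 11 lower. The medians of 0.76, 1.03 and 0.89 were positive against each L-1-OL-1 library, and 12 of the higher calls held in every fit without 1 library. Cystatins block papain-type peptidases. Cystatin gene57723 had 20.2, 67.4 and 118 FPKM in 86-1, against 1.26, 0.223 and 0.876 in L-1-OL-1 (difference 5.01 ± 0.61, adjusted p = 0.000727). Cystatin gene48931 had 11.7, 66.8 and 41.7 FPKM in 86-1, against 0, 0 and 0.402 in L-1-OL-1 (difference 4.89 ± 0.58, adjusted p = 0.000677). Cystatin gene21620 had 9.92, 85.5 and 95.7 FPKM in 86-1, against 0.49, 0.307 and 0.0959 in L-1-OL-1 (difference 5.13 ± 0.77, adjusted p = 0.00182). Replicate 1 was the lowest 86-1 library for all 3 and was still above every L-1-OL-1 library. The Kunitz-type inhibitor, a serine proteinase inhibitor, was lower in 86-1: gene63167 had 27.1, 0.4 and 4.57 FPKM in 86-1, against 113, 613 and 1042 in L-1-OL-1 (difference -6.11 ± 1.13, adjusted p = 0.00568).

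Lipoxygenases oxidise linoleic and linolenic acid. Of these, 12 of 25 passed the filter, of which 2 (16.7%) were higher and 3 (25%) lower in 86-1, and 2 higher and 5 lower with L-1-OL-1 replicate 1 left out. Lipoxygenase gene57460 had 14.2, 24.2 and 19.4 FPKM in 86-1, against 2.58, 0.395 and 0.152 in L-1-OL-1 (difference 3.47 ± 0.47, adjusted p = 0.00115). Lipoxygenase gene57445 had 1.62, 0.63 and 0.16 FPKM in 86-1, against 5.37, 73.8 and 49.2 in L-1-OL-1 (difference -4.08 ± 0.84, adjusted p = 0.0103). These members thus differed in opposite directions. Of the genes for tocopherols, antioxidants of the oil, 11 of 14 passed the filter, of which 0 were higher and 1 (9.09%) lower in 86-1, and 2 higher and 2 lower with L-1-OL-1 replicate 1 left out. The phytyltransferase that joins their ring and tail, gene50785, had 1.88, 1.99 and 2.47 FPKM in 86-1, against 4.07, 11.7 and 12.6 in L-1-OL-1 (difference -1.62 ± 0.42, adjusted p = 0.0307), and the call was lost without 86-1 replicate 1, 2 or 3 or L-1-OL-1 replicate 2 or 3 (adjusted p = 0.0974, 0.131, 0.0887, 0.124 and 0.0828). The ring methyltransferase gene1045 had 59.7, 67.1 and 58.3 FPKM in 86-1, against 46.4, 17.6 and 16.5 in L-1-OL-1 (adjusted p = 0.0704) and did not pass.

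Of the aquaporins, which are water channels, 38 of 66 passed the filter, of which 5 (13.2%) were higher and 6 (15.8%) lower in 86-1, and 10 higher and 12 lower with L-1-OL-1 replicate 1 left out. The seed aquaporin TIP3-1, gene69638, had 1913, 1267 and 1025 FPKM in 86-1, against 1417, 926 and 656 in L-1-OL-1 (adjusted p = 0.65). The channel gene44705 had 60.1, 152 and 97.9 FPKM in 86-1, against 22.6, 17.8 and 12.1 in L-1-OL-1 (difference 2.44 ± 0.43, adjusted p = 0.00424). The first overlapped between cultivars, and the second did not.

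Of the auxin genes, 141 of 232 passed the filter, of which 20 (14.2%) were higher and 8 (5.67%) lower in 86-1, and 35 higher and 24 lower with L-1-OL-1 replicate 1 left out. A GH3 gene, whose family conjugates auxin, gene63815, had 10.9, 10.8 and 8.09 FPKM in 86-1, against 3.30, 0.189 and 0.298 in L-1-OL-1 (difference 2.53 ± 0.50, adjusted p = 0.0081). The small auxin-up RNA gene70598 had 0.048, 0 and 0.0567 FPKM in 86-1, against 5.02, 19.8 and 27.4 in L-1-OL-1 (difference -3.88 ± 0.54, adjusted p = 0.00127). Of the genes for gibberellin and abscisic acid, 67 of 118 passed the filter, of which 8 (11.9%) were higher and 5 (7.46%) lower in 86-1, and 16 higher and 13 lower with L-1-OL-1 replicate 1 left out. With all 6 libraries both shares were near those of all tested genes, 10.2% and 7.72%. The gibberellin-regulated model Helianthus_annuus_newGene_27027 had 26.2, 38.2 and 52.4 FPKM in 86-1, against 4.77, 2.17 and 1.32 in L-1-OL-1 (difference 3.46 ± 0.43, adjusted p = 0.000798). A gene of the same family, gene37871, had 2.36, 0.448 and 0.766 FPKM in 86-1, against 5.37, 20.9 and 19.5 in L-1-OL-1 (difference -2.79 ± 0.55, adjusted p = 0.00778). In these pairs 1 gene was higher and 1 lower in 86-1, each without overlap.

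Of the NAC transcription factors, 94 of 279 passed the filter, of which 5 (5.32%) were higher and 14 (14.9%) lower in 86-1, and with L-1-OL-1 replicate 1 left out the counts were 8 higher and 41 lower. A lower member, gene66114, had 8.68, 5.87 and 5.89 FPKM in 86-1, against 14.2, 78.7 and 51.1 in L-1-OL-1 (difference -2.37 ± 0.58, adjusted p = 0.0228). That call did not hold in every fit without 1 library. A less abundant gene, from the smaller group of higher members, is described as NAC domain protein 12, in Arabidopsis a switch for secondary walls. This gene, gene27452, had 2.62, 8.51 and 10.4 FPKM in 86-1, against 0, 0 and 0 in L-1-OL-1 (adjusted p = 0.00154). Of the MYB factors, 104 of 275 passed the filter, of which 9 (8.65%) were higher and 5 (4.81%) lower in 86-1, and with L-1-OL-1 replicate 1 left out the counts were 12 higher and 17 lower. A gene described as MYB83, in Arabidopsis also a regulator of secondary walls, gene7986, had 3.02, 6.98 and 8.76 FPKM in 86-1, against 0.259, 0.0441 and 0.0966 in L-1-OL-1 (difference 2.59 ± 0.35, adjusted p = 0.00113). Both gene27452 and gene7986 were at or near 0 in L-1-OL-1 and, within 86-1, lowest in replicate 1. Of the AP2/ERF factors, 48 of 89 passed the filter, of which 3 (6.25%) were higher and 0 lower in 86-1, and with L-1-OL-1 replicate 1 left out the counts were 5 higher and 13 lower.

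**Figure D4:**
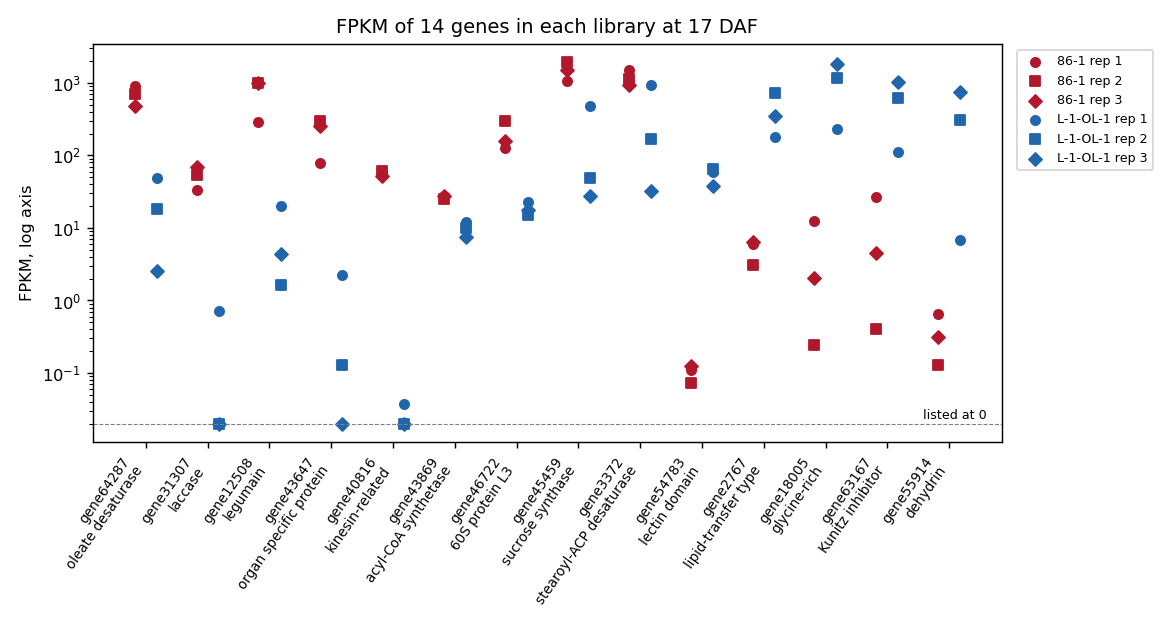
FPKM (y axis, log axis) of 14 genes named in the text (x axis) in each of the 3 86-1 and 3 L-1-OL-1 libraries at 17 DAF, with values listed at 0 drawn on the dashed line. The oleate desaturase gene64287 lies between 481 and 905 FPKM in 86-1 and between 2.55 and 49.3 FPKM in L-1-OL-1, whereas 1 stearoyl-ACP desaturase value of L-1-OL-1 lies within the 86-1 range.

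Outside the lists, the largest positive differences included 3 genes described as organ specific proteins. Of these, gene43647, had 78.2, 302 and 255 FPKM in 86-1, against 2.22, 0.128 and 0 in L-1-OL-1 (difference 6.90 ± 0.62, adjusted p = 0.000256). The second, gene32827, had 36.5, 165 and 159.8 FPKM in 86-1, against 0.74, 0.0843 and 0.133 in L-1-OL-1 (difference 6.28 ± 0.58, adjusted p = 0.000272). The gene model Helianthus_annuus_newGene_33495 had 27.3, 201 and 227 FPKM in 86-1, against 1.96, 0 and 0.147 in L-1-OL-1 (difference 6.18 ± 0.80, adjusted p = 0.000965). In all 3, 86-1 replicate 1 was the lowest of its group. The reversibly glycosylated polypeptide, a type that handles sugars for wall polymers, gene58109, had 121, 829 and 606 FPKM in 86-1, against 20.3, 0.602 and 11.4 in L-1-OL-1 (difference 5.72 ± 1.03, adjusted p = 0.00488). The gamma thionin, a small defence peptide, Helianthus_annuus_newGene_18250, had 253, 207 and 135 FPKM in 86-1, against 0, 0.603 and 15.3 in L-1-OL-1 (difference 6.02 ± 0.92, adjusted p = 0.00207). The isoflavone reductase-like gene5766 had 49.1, 159 and 209 FPKM in 86-1, against 1.07, 0.0682 and 0 in L-1-OL-1 (difference 6.51 ± 0.57, adjusted p = 0.000228).

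Among the largest negative differences, the lectin domain protein gene54783 had 0.109, 0.0722 and 0.124 FPKM in 86-1, against 58.8, 64.9 and 38.0 in L-1-OL-1 (difference -5.60 ± 0.32, adjusted p = 0.000159). The ubiquitin model Helianthus_annuus_newGene_29300 had 0.0369, 0.0357 and 4.02 FPKM in 86-1, against 118, 226 and 167 in L-1-OL-1 (difference -6.56 ± 0.62, adjusted p = 0.000288). The 3 L-1-OL-1 libraries were close together in these genes. The glycine-rich protein gene18005 had 12.6, 0.241 and 2.02 FPKM in 86-1, against 234, 1175 and 1812 in L-1-OL-1 (difference -7.74 ± 0.98, adjusted p = 0.000855). The endochitinase, an enzyme that cleaves chitin, gene39266, had 0.836, 1.11 and 0.768 FPKM in 86-1, against 28.6, 144 and 196 in L-1-OL-1 (difference -5.64 ± 0.65, adjusted p = 0.000616). The knottin-type small protein gene71649 had 6.84, 0.693 and 2.44 FPKM in 86-1, against 60.2, 889 and 1037 in L-1-OL-1 (difference -6.75 ± 1.06, adjusted p = 0.00233). In the last 3, L-1-OL-1 replicate 1 was the lowest of its group and still above all 86-1 libraries.

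Some genes were at 0 in all libraries of one cultivar and above 0 in all of the other. There were 537 at 0 in L-1-OL-1 and 84 at 0 in 86-1, and their median level in the cultivar with values was 3.29 FPKM in 86-1 and 3.11 FPKM in L-1-OL-1. Such a gene passed the filter only where all 3 libraries of the other cultivar reached 1 FPKM. That 536 and 84 of them were called thus largely follows from how they were chosen. The calmodulin-binding protein gene76826 had 31.7, 34.4 and 28.6 FPKM in 86-1, against 0, 0 and 0 in L-1-OL-1. The BRCA1-associated type gene76825 had 18.5, 37.2 and 38.9 FPKM in 86-1, against 0, 0 and 0 in L-1-OL-1. A cystatin, gene57722, had 1.54, 34.2 and 55.1 FPKM in 86-1, against 0, 0 and 0 in L-1-OL-1 (adjusted p = 0.0224), and the call was lost without 86-1 replicate 2 or 3 or L-1-OL-1 replicate 2 or 3 (adjusted p = 0.0974, 0.0724, 0.0537 and 0.0515). At 27 DAF, gene76826 had 20.2, 31.0 and 33.3 FPKM and gene76825 had 21.3, 23.5 and 37.0 FPKM in 86-1, and L-1-OL-1 was again listed at 0 for both. A methyltransferase gene was at 0 in 86-1: gene17752 had 0, 0 and 0 FPKM in 86-1, against 2.94, 61.1 and 79.1 in L-1-OL-1 (adjusted p = 0.0111), and the call was lost without 86-1 replicate 1 (adjusted p = 0.068). The serine carboxypeptidase gene37578 had 0, 0 and 0 FPKM in 86-1, against 3.64, 77.5 and 78.8 in L-1-OL-1 (adjusted p = 0.00837), and that call was lost without 86-1 replicate 1 (adjusted p = 0.0579). Of the 537 genes, 454 (84.5%) were also at 0 in all L-1-OL-1 libraries of 27 DAF, against 5.39% of all tested genes. Of the 84 genes, 64 (76.2%) were also at 0 in all 86-1 libraries of 27 DAF, against 2.83% of all tested genes. The tested genes include genes of every level, so these shares are not those of genes at a like level.

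The libraries of 27 DAF gave the cultivar comparison in other samples. There, 7234 of the 26660 genes were called higher in 86-1 (27.1%) and 7487 lower (28.1%), and 30.8% and 32.5% of the genes had no overlap in these directions. Of the 2711 genes higher at 17 DAF, 75.4% were higher at 27 DAF and 1.51% lower. Of the 2057 genes lower at 17 DAF, 72.9% were lower at 27 DAF and 9.48% higher. As a share of the 27 DAF calls, genes called the same way at both stages were 28.2% of the higher and 20.0% of the lower ones. The oleate desaturase gene64287 had 568, 554 and 176 FPKM in 86-1 at 27 DAF, against 0.0902, 0.0735 and 0 in L-1-OL-1. The glycine-rich gene18005 had 951, 992 and 998 FPKM in 86-1 at 27 DAF, against 3032, 5174 and 6949 in L-1-OL-1. Both cultivars thus kept their order for these genes. The NAC gene27452 and the MYB gene7986 stood at 0 in all 6 libraries of 27 DAF. Whether differences changed between the stages was not tested.

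**Figure D5:**
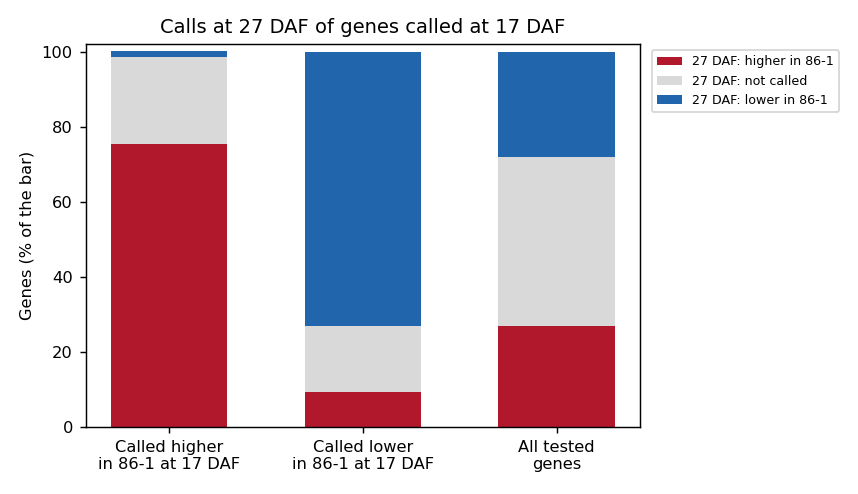
Share of genes (y axis, percent) called higher, not called or called lower in 86-1 at 27 DAF, for the genes called higher or lower at 17 DAF and for all tested genes (x axis). Of the genes higher at 17 DAF 75.4% were higher at 27 DAF, and of those lower 72.9% were lower, against 27.1% and 28.1% of all genes.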

How the data were processed

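Seed RNA was extracted with a plant kit and its libraries were read on an Illumina instrument, per the labels' protocols. The authors deposited expression as FPKM for 12 libraries, and every column could be tied to one sample through its title. The submitters' processing notes, deposited with the series, list HISAT2 2.0.4, Bowtie2 2.2.5, RSEM 1.2.12 and also DESeq2 1.4.5, with no role for any. The genome build and the annotation are not stated in the material used. A second table that the authors deposited gives each gene's best database match with its score and E-value, which were not used, and its description, which covered 45957 of 48882 genes. Gene identifiers had no counterpart in the reference gene list, so no positions or sequences are printed.

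The fit used limma 3.58.1 (R 4.3.3) on log2(FPKM + 1) with a mean-variance trend, 2-sided, in the 6 libraries of 17 DAF alone, and separately in those of 27 DAF; it was tested on simulated data. Gene lists are word rules on the descriptions, described by counts and medians with no list test. Members, lists and the naming rule were chosen with earlier results of these data known, and list words were adjusted after reading descriptions, without the values.

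Named genes were chosen as follows: the 10 largest differences in each direction among called genes that had no overlap, kept their call in every fit without 1 library and averaged at least 10 FPKM in the higher cultivar; up to 3 called members per list and direction averaging at least 5 FPKM; all omega-6 and stearoyl-ACP desaturases; the 5 highest genes at 0 in either cultivar; the 6 most abundant genes; and the 5 genes with the largest excess of L-1-OL-1 replicate 1 over 3, and of 3 over 1, averaging at least 50 FPKM. The rule gave 159 genes. The 2 most abundant members of each list and the seed regulators were added after their values were seen, and the text names a selection of all of these, also made with the values known.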

Additional observations from a re-analysis of the deposited data

Results flagged for a closer look

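Of the 69 genes considered for naming that were called lower in 86-1 at 17 DAF without overlap, 18 had every 86-1 value above every L-1-OL-1 value at 27 DAF, and 0 of 71 genes did the reverse. Over all tested genes these numbers were 210 of 2053 (10.2%) and 50 of 2693 (1.86%). Of the 18 genes, 16 were called higher in 86-1 at 27 DAF by limma; gene31341 (adjusted p = 0.0792) and gene70598 (adjusted p = 0.093) were not called there. Whether the stages differ was not tested. For each gene the difference of 86-1 minus L-1-OL-1 on the log2(FPKM + 1) scale is given at 17 DAF and then at 27 DAF.

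Among lipid genes, the lipid-transfer type gene2767 had -5.92 ± 0.53 and 7.23 ± 0.38, and the lipid transfer gene62340 had -3.45 ± 0.87 and 1.66 ± 0.29. The acyltransferase gene31133 had -2.94 ± 0.52 and 3.48 ± 0.23. The caleosin gene80552 had -1.64 ± 0.43 and 2.78 ± 0.40, and the phytyltransferase gene50785 had -1.62 ± 0.42 and 1.72 ± 0.38. Of the lipoxygenases, gene57443 had -2.39 ± 0.62 and 4.26 ± 0.49, and gene57450 had -1.89 ± 0.41 at 17 DAF and 0.854, 1.00 and 4.91 FPKM in 86-1 at 27 DAF, where L-1-OL-1 was listed at 0.

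Among wall and phenolic genes, the laccase gene65042 had -3.40 ± 0.81 at 17 DAF and 48.2, 55.5 and 56.4 FPKM in 86-1 at 27 DAF, where L-1-OL-1 was listed at 0, and the laccase gene31341 had -2.43 ± 0.42 and 0.35 ± 0.15. At 27 DAF gene31341 was low, with 1.49, 1.23 and 1.59 FPKM in 86-1, against 0.839, 1.12 and 0.789 in L-1-OL-1. The hydroxylase Helianthus_annuus_newGene_23641 had -4.49 ± 0.36 and 1.65 ± 0.25, and the chalcone isomerase type gene31217 had -1.97 ± 0.42 and 2.94 ± 0.23. The CASP-like gene58405 had -2.46 ± 0.36 at 17 DAF and 2.39, 1.62 and 5.44 FPKM in 86-1 at 27 DAF, where L-1-OL-1 was listed at 0.

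Among transporters and regulators, the sugar transporter gene76437 had -2.13 ± 0.51 and 1.86 ± 0.59, and the aquaporin gene4437 had -2.47 ± 0.43 and 3.37 ± 0.33. The small auxin-up gene70598 had -3.88 ± 0.54 and 0.57 ± 0.26. It was low in both cultivars at 27 DAF, with 0.358, 0.382 and 1.69 FPKM in 86-1, against 0.238, 0.119 and 0.104 in L-1-OL-1. The NAC gene19963 had -2.49 ± 0.61 and 0.64 ± 0.19, and the NAC gene66114 had -2.37 ± 0.58 and 3.08 ± 0.52. Levels of gene19963 at 27 DAF were also low, with 0.614, 0.793 and 1.36 FPKM in 86-1, against 0.452, 0.239 and 0 in L-1-OL-1. The MYB gene6312 had -1.65 ± 0.48 at 17 DAF and 4.02, 4.87 and 6.18 FPKM in 86-1 at 27 DAF, where L-1-OL-1 was listed at 0.

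Some of the 17 DAF calls, from limma, did not hold in every fit without 1 library. That of gene62340 was lost without 86-1 replicate 2 or 3 or L-1-OL-1 replicate 2 or 3 (adjusted p = 0.123, 0.0902, 0.0706 and 0.0723). That of gene80552 was lost without 86-1 replicate 1, 2 or 3 or L-1-OL-1 replicate 2 or 3 (adjusted p = 0.0964, 0.132, 0.0856, 0.139 and 0.0844). That of gene57443 was lost without 86-1 replicate 2 or 3 or L-1-OL-1 replicate 2 or 3 (adjusted p = 0.117, 0.117, 0.108 and 0.0688). That of gene57450 was lost without 86-1 replicate 2 or L-1-OL-1 replicate 2 (adjusted p = 0.0597 and 0.0635). That of gene65042 was lost without 86-1 replicate 2 or 3 or L-1-OL-1 replicate 2 or 3 (adjusted p = 0.0626, 0.0829, 0.0588 and 0.0568). That of gene31217 was lost without 86-1 replicate 2 or L-1-OL-1 replicate 2 (adjusted p = 0.0761 and 0.0583). That of gene76437 was lost without 86-1 replicate 1 or 2 or L-1-OL-1 replicate 2 or 3 (adjusted p = 0.0902, 0.107, 0.0637 and 0.0508). That of gene19963 was lost without 86-1 replicate 1, 2 or 3 or L-1-OL-1 replicate 2 or 3 (adjusted p = 0.0845, 0.0769, 0.0978, 0.0841 and 0.0648). That of gene66114 was lost without 86-1 replicate 1, 2 or 3 or L-1-OL-1 replicate 2 or 3 (adjusted p = 0.0691, 0.0991, 0.0893, 0.0774 and 0.0657). That of gene6312 was lost without 86-1 replicate 1, 2 or 3 or L-1-OL-1 replicate 2 or 3 (adjusted p = 0.0884, 0.216, 0.125, 0.129 and 0.112).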

How the results depend on the processing

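Of the 214 genes considered for naming, 141 were called, and none of these changed direction in any alternative run. Among them, 71 higher and 69 lower ones had no overlap between cultivars, so leaving out a library could not reverse them. That no direction changed thus largely follows from this lack of overlap. Many lost the call: 33 to 49 with any single library but L-1-OL-1 replicate 1 left out, 40 with no filter and 36 with a replicate block. The call was also lost by 21 to 22 with the other scalings and by 15 with a pseudocount of 0.1. Over genes with a mean of at least 5 FPKM, 28 lost it and 85 kept it, and the rest did not enter that fit. None lost it without L-1-OL-1 replicate 1, with array weights or in all 12 libraries. The count of omega-6 desaturases called higher, 2 as reported, was 1 with a pseudocount of 0.1, with no filter and with a mean of at least 5 FPKM. The counts of genes higher and lower in 86-1 at 17 DAF (2711 and 2057) depended more on the fit. A fit of all 12 libraries gave 4386 and 2746, array weights 9989 and 5975, genes with a mean of at least 5 FPKM alone 562 and 453, and L-1-OL-1 replicate 1 as the only library of its group 1271 and 1250. Leaving out 1 library gave 1615 to 4738 higher and 1372 to 4657 lower genes, the highest without L-1-OL-1 replicate 1, and 1789 higher without 86-1 replicate 3. Of the calls, 56.9% were higher in 86-1, against 50.4% with L-1-OL-1 replicate 1 left out. Median-of-ratios scaling, quantile normalization, rescaling without storage genes, a pseudocount of 0.1 and no filter kept both counts within 1.5 times. Genes lower in 86-1 without overlap numbered 3209, and 8305 with L-1-OL-1 replicate 1 left out; the higher ones and the 27 DAF counts stayed within 1.5 times. With a replicate block the counts were 2013 and 1809. Deviations of same-numbered libraries from their group means correlated at -0.21, -0.24 and 0.08. With 3 libraries per group, such values cannot show whether same-numbered libraries share a batch or harvest. The main fit treated them as unpaired. The causes of these shifts were not tested, apart from fewer genes or samples in a fit. Depth is unknown, so a listed 0 sets no upper limit.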

Other observations

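Gene models with newGene in their identifier were called more often than the rest. Of 4340 tested, 872 were higher and 902 lower in 86-1, together 40.9%, against 13.4% of the other genes. They made up 394 of the 537 genes listed at 0 in L-1-OL-1 and 46 of the 84 listed at 0 in 86-1. Genes with a mean below 5 FPKM were called at 27.3%, and those at or above it at 10.8%. Of all calls, 1825 had no description that names a protein.

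Some abundant genes separated the L-1-OL-1 libraries more than the cultivars. The LEA gene21378 had 3.32, 1.47 and 1.196 FPKM in 86-1, against 4.58, 262 and 3348 in L-1-OL-1 (adjusted p = 0.0671, limma). The legumin gene36170 had 438, 345 and 239 FPKM in 86-1, against 523, 98.0 and 0.614 in L-1-OL-1 (adjusted p = 0.324, limma). The preproalbumin gene11097 had 1372, 587 and 503 FPKM in 86-1, against 2878, 483 and 11.6 in L-1-OL-1 (adjusted p = 0.63, limma).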
